A study of Rattus norvegicus with 4 samples.

Results

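Families of ion channels and receptors with members that volatile anesthetics act on in nerve cells were examined in rat liver. The members were all genes of the deposited tables whose symbol begins with Gabr followed by a subunit letter, Glra or Glrb, Kcnk, Hcn, Grin1 to Grin3, or Chrn followed by a subunit letter. This rule gave 64 of 16992 genes, and it used symbols alone and no expression value. RNA was sequenced from the livers of 4 wild type male Wistar rats, with 1 rat for each condition, which were 6 weeks old when purchased. The sevoflurane rat inhaled 4.5% sevoflurane for 6 hours, and the desflurane rat inhaled 6% desflurane for 6 hours. The control of each agent inhaled the same agent for less than 1 minute and was sacrificed once consciousness was lost, so that no rat without any anesthetic was included. Since each condition had 1 library, the difference between a single pair of conditions has no spread of replicates beside it and is given with no p-value. Only both 6 hour livers against both controls, over the agents, could be tested. Differences between livers, feeding, or handling cannot be told apart from the effect of an agent.

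Volatile anesthetics are known to strengthen inhibition in the nervous system. GABA-A receptors and glycine receptors are pentameric chloride channels opened by GABA and glycine. Volatile agents prolong the opening of many of these receptors, but not necessarily of those formed by every subunit listed here. K2P potassium channels carry the background current that holds cells at rest, and members such as TREK-1 (*Kcnk2*) and TASK-1 (*Kcnk3*) are opened by volatile agents. HCN channels are cation channels opened by hyperpolarization, NMDA receptors are glutamate-gated cation channels, and nicotinic acetylcholine receptors are pentameric cation channels; all of these are inhibited by at least some anesthetics. In the liver, these families are little studied in comparison with the drug-metabolizing enzymes.

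Most of the members were at or near 0 in liver. The mean TPM value over the 4 libraries was higher than 0.5 for 8 members, which is 12.5% of them, compared with 65.9% of all genes. These were *Kcnk5*, *Kcnk6*, *Kcnk3*, and *Kcnk13* of the K2P channels, *Hcn3* of the HCN channels, *Gabrr2* of the GABA-A receptor subunits, and *Chrne* and *Chrnb1* of the nicotinic receptor subunits. No glycine receptor or NMDA receptor subunit reached this level. Another 29 members had a mean between 0.0031 and 0.36, and 27 members, or 42.2%, were at 0 in all 4 libraries, compared with 17.0% of all genes. TPM is a level corrected for gene length and library size. The level of 0.5 separated the members without a close case, since the lowest mean inside was 0.886 for *Kcnk13* and the highest outside was 0.362 for *Glra4*.

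**Figure D1:**
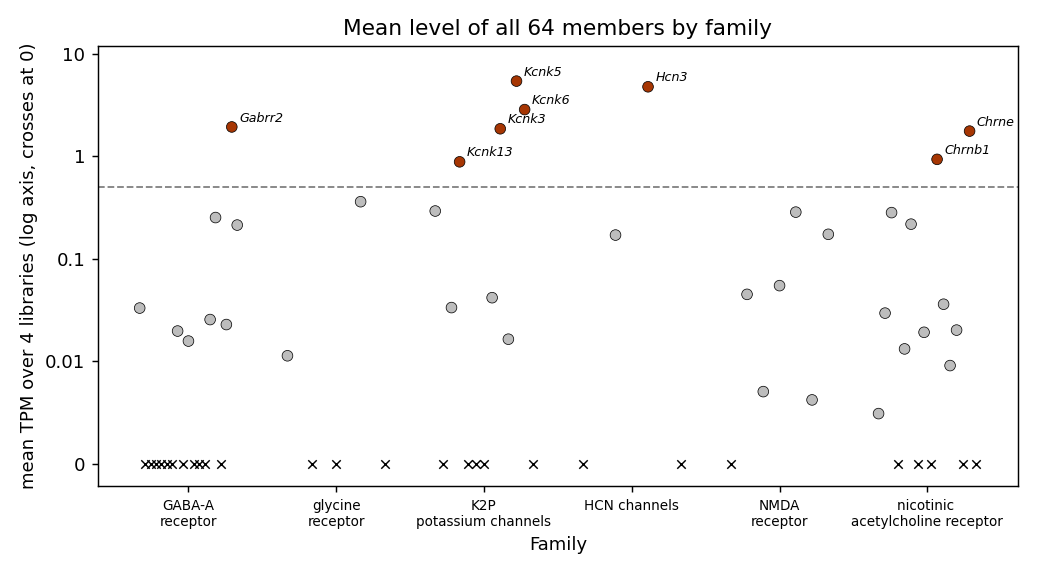
Mean TPM value over the 4 libraries for each of the 64 members, by family, on a log axis with crosses for the 27 members at 0 in all libraries and a dashed line at 0.5 TPM. The 8 named members are above the line, and 4 of them are K2P channels.

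The families differed in how many of their members were detected. Among the 19 GABA-A receptor subunits, only *Gabrr2* had a mean above 0.5 TPM, and 11 were at 0 in all 4 libraries. These 11 included the 4 genes of the cluster at chr14:38643383-40049342 in rn6 (*Gabrb1*, *Gabra4*, *Gabra2*, and *Gabrg1*) and the 3 genes at chrX:152220180-152864975 (*Gabre*, *Gabra3*, and *Gabrq*). The 5 glycine receptor subunits were led by *Glra4*, and 3 of them were at 0. Of the 13 K2P channels, 4 passed 0.5 TPM and 5 were at 0, and *Kcnk2*, the gene of TREK-1, was listed at 0 TPM in the sevoflurane control, at 0.0348 TPM in the sevoflurane 6 hour liver, at 0.132 TPM in the control of desflurane, and at 0 TPM in the desflurane 6 hour liver. All values below are given in this order of libraries. Of the 4 HCN channels, *Hcn3* passed. The 7 NMDA receptor subunits were all below 0.5 TPM in every library, and the highest was *Grin2d* with 0.277, 0.289, 0.318, and 0.260 TPM. Among the 16 nicotinic subunits, 2 passed and 5 were at 0.

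The 8 expressed members made up between 86.1% and 90.4% of the summed TPM of all members. Their coverage, the mean number of reads over each exonic base, ranged from 1.06 to 10.7, and a coverage of 1 corresponded to between 0.534 and 0.593 TPM. The depth of the libraries was between 4.47 and 5.40 Gb of aligned sequence. The tables used here hold no read counts, and intervals for counting error are not given. In liver, hepatocyte genes were abundant in all libraries (*Alb*, the gene of albumin, had 83368, 79111, 77519, and 92912 TPM), whereas 10 marker genes of neurons summed to between 1.05 and 1.75 TPM, and their defining genes *Snap25* and *Syt1* were at or near 0. The sevoflurane control stood apart in several markers. Its 10 genes of pancreatic acinar cells summed to 66.5 TPM, compared with between 16.5 and 18.9 TPM in the others, where *Cela1* made up most of the sum. Without *Cela1*, the other 9 summed to 43.7, 0.521, 1.42, and 3.33 TPM. In the same library, the 6 leukocyte genes summed to 74.6 TPM, compared with between 40.3 and 57.8 TPM. The B cell genes summed to 6.17 TPM there, compared with between 2.33 and 3.20 TPM. The 7 erythroid genes summed to 122, 85.6, 91.3, and 50.9 TPM, so that the desflurane 6 hour liver was also apart, as the lowest. Among them, *Alas2* had 13.6 TPM in the sevoflurane control, compared with between 5.93 and 6.18 TPM. Not every list was highest in this library, since the 6 neutrophil genes summed to 3.06, 2.66, 4.47, and 1.27 TPM. Changes of the 8 expressed members are given against both controls, and fold changes of the related genes listed further below against the own control only.

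The start regions of an evenly expressed member and of the most variable of the 8 expressed members are shown as a contrast in base composition. The 250 bases before the RefSeq gene start in GRCr8 were printed for *Kcnk5* (chr15:4171375-4171624, plus strand) and *Chrne* (chr10:55834155-55834404, minus strand), from 5′ to 3′. In *Kcnk5*, capitals mark the GC box GGGCGG, a binding sequence of SP1 family factors that is common in housekeeping promoters. In *Chrne*, capitals mark an E box of the form CAGCTG and the N box CCGGAA, elements known from muscle genes and from synaptic genes of muscle.
Kcnk5: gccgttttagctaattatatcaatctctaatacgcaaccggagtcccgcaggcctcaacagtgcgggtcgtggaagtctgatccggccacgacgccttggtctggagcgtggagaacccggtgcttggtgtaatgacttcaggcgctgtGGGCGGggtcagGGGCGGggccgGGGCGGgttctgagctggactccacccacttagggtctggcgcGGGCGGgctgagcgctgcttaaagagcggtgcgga
Chrne: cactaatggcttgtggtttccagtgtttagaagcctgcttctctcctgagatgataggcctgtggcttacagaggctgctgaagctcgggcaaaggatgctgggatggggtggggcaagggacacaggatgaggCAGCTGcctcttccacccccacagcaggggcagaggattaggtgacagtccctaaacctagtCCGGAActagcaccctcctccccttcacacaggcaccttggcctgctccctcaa
The 2 start regions differed in composition, with 62.8% of bases G or C in *Kcnk5* and 57.6% in *Chrne*. Of the other expressed members that could be matched, *Chrnb1* had 57.6%, with 2 GC boxes and 1 E box. *Kcnk13* had 69.6% and *Gabrr2* 47.6%, each with 0 GC boxes. Searching both strands, 4 GC boxes without overlap were present before *Kcnk5* and 0 before *Chrne*, and 30.5% of all 33469 RefSeq start regions of this length held at least 1, as did 50.9% of the matched genes of the files. The region of *Chrne* held 1 E box and 1 N box, which were found in 12% and 12.6% of all start regions and in 12.9% and 20% of the matched genes of the files. The ratio of observed to expected CpG was 0.924 for *Kcnk5* and 0.0965 for *Chrne*. Start regions could be matched for 41 of the 64 members, with a median CpG ratio of 0.466 compared with 0.666 for all genes of the files. A match of letters does not show that a factor binds there. The median span was 24.5 kb for the 8 expressed members, compared with 19.9 kb for all genes with a mean TPM above 0.5. For the members at 0 in all libraries it was 37.4 kb, compared with 2.69 kb for all genes at 0. The median of all genes was 16.1 kb.

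The most abundant member was *Kcnk5*, which encodes TASK-2, an alkaline-activated background potassium channel of epithelia (chr15:4554603-4597000, plus strand, rn6). It had 5.71, 5.48, 5.63, and 4.94 TPM, and it was placed between rank 7482 and rank 8061 of all genes. The highest library was 1.16-fold above the lowest, and neither agent moved it by more than 1.16-fold against either control. StringTie also listed a transcript over the full annotated span of *Kcnk5* as assembled in each of the 4 libraries. Its TPM and coverage were identical to those of the annotated row, so it is no separate measure of the level.

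*Kcnk6* encodes TWIK-2, a weak inward rectifier of vessels and other tissues. It had 2.51, 2.52, 3.44, and 3.0 TPM. The fold change was 1.0 with sevoflurane and 0.871 with desflurane against the respective controls, and 0.732 and 1.20 against the control of the other agent. The 4 values did not separate controls from the 6 hour livers. The rn6 annotation places *Kcnk6* at both chr1:87166455-87174821 and chr1:88168438-88176610, and each row had 1.26, 1.26, 1.72, and 1.5 TPM, so that the level is a sum over near-identical copies whose reads cannot be told apart.

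*Kcnk3* encodes TASK-1, a background channel that is closed by acid and opened by volatile anesthetics (chr6:27154278-27190209, minus strand). It had 1.60, 1.77, 1.03, and 3.05 TPM with a coverage of 2.87, 3.0, 1.93, and 5.14. Both 6 hour libraries were above both controls, and the desflurane library was the highest. With desflurane, *Kcnk3* was 2.96-fold higher than in its own control and 1.91-fold higher than in the sevoflurane control, which misses the 2-fold limit. With sevoflurane, it was 1.11-fold and 1.72-fold higher than in the sevoflurane and desflurane controls. A transcript with its full annotated span was listed as assembled in the sevoflurane control and the sevoflurane 6 hour liver only. There, its TPM and coverage repeated those of the annotated row. The controls differed 1.55-fold from each other, which is larger than the change with sevoflurane against its own control. Among 7 muscle genes that were listed as markers of vessel and muscle tissue, *Tagln* had 8.81, 20.8, 10.5, and 15.6 TPM and the sum of all 7 was 11.4, 22.1, 12.2, and 18.4 TPM, which was also higher in both 6 hour livers. The list did not move as 1 group, since the 6 genes other than *Tagln* summed to 2.55, 1.34, 1.66, and 2.79 TPM. The part of *Tagln* in the values of *Kcnk3* was not tested. In whole liver, fewer cells of a type and less RNA per cell cannot be told apart.

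*Kcnk13* encodes THIK-1, a halothane-inhibited background channel best known from microglia (chr6:123974798-124077197, plus strand). It had 1.06, 0.629, 1.19, and 0.667 TPM, at a coverage between 1.06 and 2.22. Both 6 hour libraries were below both controls. With sevoflurane, the value was 1.69-fold below its own control and 1.88-fold below the other. With desflurane, it was 1.78-fold and 1.59-fold below them, so that no comparison passed 2-fold. The controls were 1.1-fold apart. The 10 genes of Kupffer cells and macrophages summed to 719, 452, 561, and 684 TPM, and they were thus lowest after sevoflurane but not after desflurane; their part in the values of *Kcnk13* was not tested.

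Next, *Hcn3*, a hyperpolarization-activated cation channel, was the second most abundant member (chr2:188458851-188471916, minus strand). It had 2.89, 6.30, 5.08, and 4.90 TPM, and the sevoflurane control was the lowest. *Hcn3* was 2.18-fold higher with sevoflurane than in its own control but 1.24-fold higher than in the desflurane control. With desflurane, the fold change was 0.964 against its own control and 1.70 against the sevoflurane control. The controls themselves differed 1.76-fold, and the call with sevoflurane therefore rested on the sevoflurane control. *Hcn3* lies tail to tail with *Pklr*, the liver pyruvate kinase gene, whose annotated end on the opposite strand is 816 bp away. *Pklr* had 119, 180, 155, and 167 TPM, which was also lowest in the sevoflurane control and highest after sevoflurane. In the desflurane 6 hour library, the assembled *Pklr* transcript ran 1732 bp past its annotated end and covered 916 bp of *Hcn3*. Every library also had an assembled transcript inside *Hcn3* on the strand of *Pklr* and none on the strand of *Hcn3*. The labels and the paper name stranded kits, but whether strand was used in the quantification is not given in the sources used here, so reads of *Hcn3* and of transcripts opposite to it cannot be told apart. The part of *Pklr* in the values of *Hcn3* was not tested.

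*Gabrr2* encodes the rho2 subunit, which forms GABA-gated chloride channels formerly called GABA-C receptors and known mainly from retina (chr5:48303366-48341571, plus strand). It had 2.85, 1.57, 1.73, and 1.62 TPM. The sevoflurane control was high and the other 3 libraries were close to each other. *Gabrr2* was 1.81-fold lower with sevoflurane and 1.07-fold lower with desflurane against the respective controls. With the controls exchanged, the differences were 1.1-fold and 1.76-fold, and the controls differed 1.65-fold. The library with high *Gabrr2* was also the one with the high sum of acinar genes, whose part was not tested. On the opposite strand inside *Gabrr2*, assembled transcripts had 1.68, 1.58, 1.40, and 0 TPM. Their coverage was 1.39, 1.19, 2.62, and 0, so that the desflurane control was the highest by coverage but not by TPM. The other rho subunits were lower, since *Gabrr3* had 0.129, 0.313, 0.130, and 0.283 TPM, and *Gabrr1* was listed above 0 only in the 6 hour livers, with 0.0678 and 0.0235 TPM. For *Gabrr3*, both 6 hour livers were more than 2-fold above both controls, but its coverage did not exceed 0.530.

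Of the nicotinic subunits, *Chrne* and *Chrnb1* encode the epsilon and beta1 subunits of the muscle receptor, and both lie on chromosome 10. *Chrne* (chr10:57238960-57243279, minus strand) had 0.751, 1.37, 1.71, and 3.24 TPM. This was the widest range among the expressed members, 4.32-fold between the desflurane 6 hour liver and the sevoflurane control. The fold change was 1.83 with sevoflurane and 1.90 with desflurane against the respective controls. Against the control of the other agent, it was 0.804 and 4.32, and the direction with sevoflurane thus depended on the control. The controls differed 2.27-fold. The annotated gene *LOC687707* overlaps 956 bp of *Chrne* on the opposite strand and had 0.587, 0.594, 0.766, and 2.03 TPM, which was also highest after desflurane. The skeletal muscle gene *Ckm* had 0.0391 TPM in the sevoflurane control and was listed at 0 in the others, and *Acta1* did not exceed 0.0782 TPM. The other subunits of the muscle receptor were *Chrna1* with no value above 0.0065 TPM, and *Chrnd* and *Chrng* at 0 in all libraries.

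*Chrnb1* (chr10:56390671-56403188, minus strand) had 0.681, 1.38, 0.821, and 0.862 TPM. The sevoflurane 6 hour liver was the highest and the other 3 were close to each other. It was 2.03-fold and 1.68-fold higher with sevoflurane than in the sevoflurane and desflurane controls, and 1.27-fold and 1.05-fold higher with desflurane. After median-of-ratios scaling, the last of these was 0.06 lower than its control on the log2 scale.

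**Figure D2:**
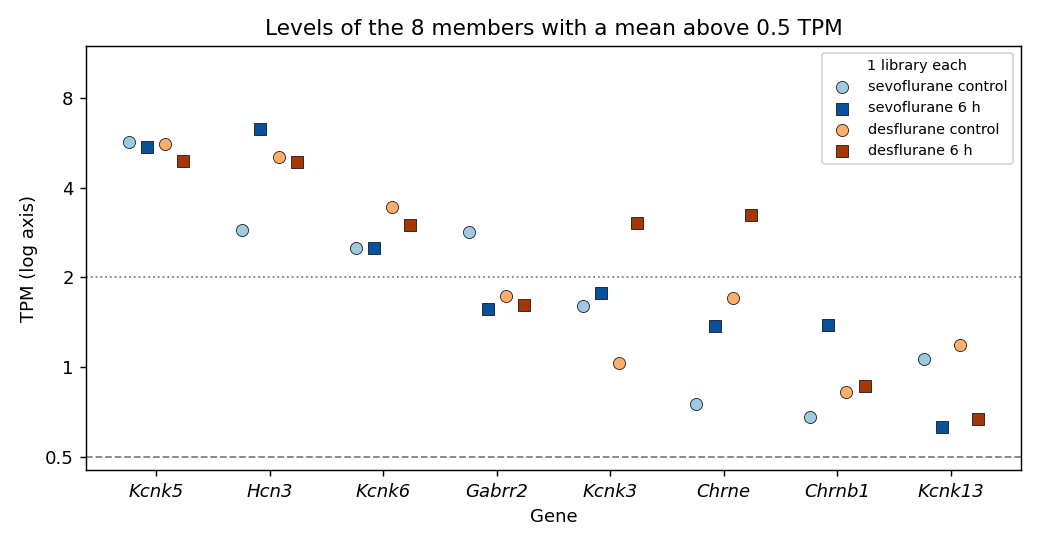
TPM values (log axis) of the 8 expressed members in the 4 libraries, 1 point per library, with lines at 0.5 and 2 TPM. The 2 controls (circles) are 1.76-fold apart for *Hcn3* and 2.27-fold apart for *Chrne*, whereas all 4 libraries of *Kcnk5* lie between 4.94 and 5.71 TPM.

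The calling rule of the study requires a TPM value higher than 2 in the higher library and a difference of more than 2-fold. According to this rule, 1 member, *Hcn3*, was upregulated by sevoflurane and 1 member, *Kcnk3*, by desflurane against the respective controls. Of all genes, 1.28% and 1.62% were upregulated under the same rule, or 1.95% and 2.46% of the 11196 genes with a mean TPM above 0.5. No member was downregulated by either agent, compared with 1.9% of all genes for sevoflurane and 0.859% for desflurane. With 8 expressed members, 1 called member is 1 gene, and no p-value goes with these counts. Against the other control, 0 members passed with sevoflurane (1.45% of all genes were higher and 1.49% lower) and *Chrne* passed with desflurane (1.65% higher and 0.918% lower). Neither *Hcn3* nor *Kcnk3* passed against both controls. Between the 2 controls, 0 members passed, compared with 0.671% of all genes in each direction. The desflurane 6 hour liver had 2.36-fold more *Chrne* than the sevoflurane 6 hour liver, and no other member passed in that comparison, where 1.59% of all genes were higher and 0.677% lower.

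With a limit of 0.5 TPM in place of 2, members of lower level entered the counts. With sevoflurane, *Hcn3* and *Chrnb1* then passed as higher and *Kcnk1* as lower than in its own control, compared with 2.39% and 3.24% of all genes. *Kcnk1*, the gene of the TWIK-1 channel, had 0.506, 0.0944, 0.158, and 0.414 TPM, so that the sevoflurane control was also 3.20-fold above the desflurane control. With desflurane, *Kcnk3* and *Chrna2* passed as higher and 0 members as lower than in its own control, compared with 3.03% and 1.75% of all genes. Against the other control, 0 members passed with sevoflurane (2.45% of all genes higher and 2.91% lower), and *Chrna2* and *Chrne* passed as higher with desflurane (3.19% higher and 1.79% lower). The same 2 members were higher in the desflurane than in the sevoflurane 6 hour liver (3.1% of all genes higher and 1.34% lower). Between the controls, *Chrne* and *Glra4* were higher and *Kcnk1* lower with desflurane (1.76% and 1.59% of all genes). *Chrna2* encodes the alpha2 nicotinic subunit and had 0.155, 0.220, 0.112, and 0.644 TPM. It was 5.77-fold and 4.15-fold higher with desflurane than in the desflurane and sevoflurane controls. It was the only member to pass this limit against both controls, at a coverage of 1.09 in its highest library. *Glra4*, a glycine receptor subunit gene, had 0.221, 0.258, 0.502, and 0.466 TPM. These values separated the livers of the different agents, controls included, and not the 6 hour livers from their controls. These 3 members exceeded 0.5 TPM in 1 library each, and a member that enters through its highest library has to differ.

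**Figure D3:**
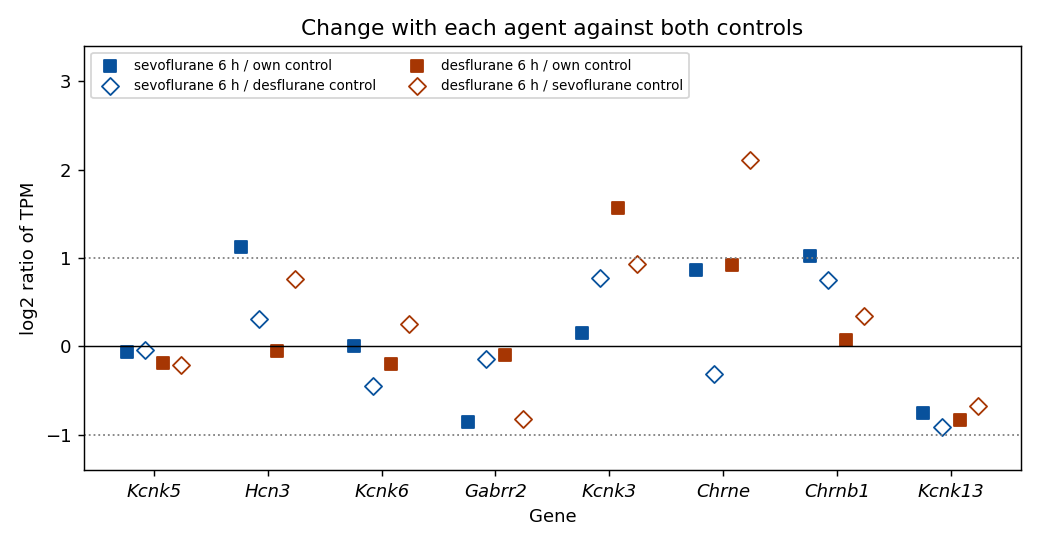
Log2 ratio of TPM for the 8 expressed members with each agent, filled squares against its own control and open diamonds against the control of the other agent, with dotted lines at 2-fold. *Kcnk13*, *Gabrr2*, and *Kcnk5* are below 0 and *Kcnk3* and *Chrnb1* above 0 in all 4 comparisons, and *Hcn3* and *Chrne* shift most with the choice of control.

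Over the 8 expressed members, the median log2 change, after adding 0.5 to each TPM, was 0.06 for sevoflurane against its own control and -0.06 for desflurane, compared with 0.05 and 0.12 for all 11196 genes with a mean above 0.5 TPM. With sevoflurane, 5 were higher and 3 lower, and with desflurane, 3 were higher and 5 lower. Of all these 11196 genes, 55.8% were higher with sevoflurane and 65.4% with desflurane. With the controls exchanged, the medians were -0.07 and 0.21, compared with 0.05 and 0.10 for the 11196 genes. All genes together were shifted by the 0.12 given above with desflurane against its own control, and single changes stand beside it. In the order of libraries, a comparison chosen after the values were seen, *Kcnk3* and *Chrnb1* had both 6 hour livers above both controls, and *Kcnk5*, *Gabrr2*, and *Kcnk13* had both below; this order holds for 32.1% and 13.6% of all genes with a mean above 0.5 TPM. When both 6 hour livers were tested against both controls with limma, a comparison added after the values were seen, 0 of the 8 members passed an adjusted p of 0.05. Of all 11196 genes, 0.0268% passed as higher and 0% as lower. The lowest adjusted p was 0.456, for *Kcnk3*, with a difference of 0.66 ± 0.31 (SE) on the log2 scale after adding 0.5 to each TPM. *Kcnk13* followed with -0.50 ± 0.25 and an adjusted p of 0.474 by limma. At an unadjusted p under 0.05 by limma, 0 members passed, compared with 1411 of the 11196 genes. With the agent as a block, 0 members passed and 0.00893% of all genes were higher and 0% lower. In this fit, *Chrne* had an unadjusted limma p of 0.0414 and an adjusted p of 0.438, with 0.67 ± 0.24 on the same scale. In the same fit, 1234 of the 11196 genes had an unadjusted limma p under 0.05. *Chrne* was higher with both agents than in the respective controls, but lower with sevoflurane than in the desflurane control. The median ratio of the highest to the lowest library was 1.96 for the 8 members and 1.65 for the 2886 genes of the same range of levels.

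**Figure D4:**
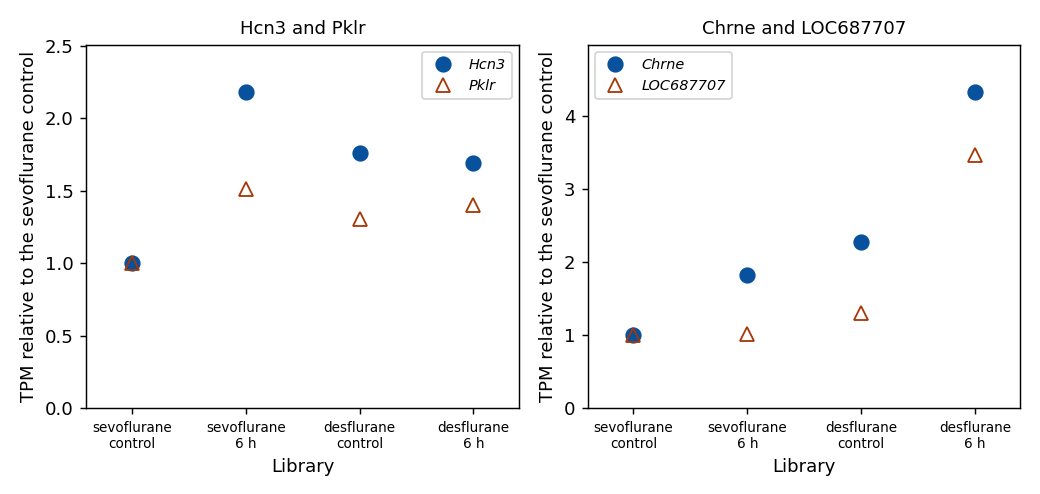
TPM of *Hcn3* and *Pklr* (left) and of *Chrne* and *LOC687707* (right) in each library, relative to the sevoflurane control set to 1. In both pairs the sevoflurane control is the lowest library, and the pair shares its highest library.

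The genes that supply, clear, and position these transmitters and receptors were examined as lists, with 103 genes in the files. Many of them were far more abundant than the channels. *Gabarap*, which links GABA-A receptors to microtubules and is also an autophagy protein, had 291, 269, 256, and 277 TPM. *Aldh9a1*, an aldehyde dehydrogenase that can form GABA, had 281, 298, 266, and 356 TPM, and *Slc6a13*, the GABA transporter GAT2, had 107, 90.3, 104, and 111 TPM. *Abat*, the GABA transaminase, had 98.6, 110, 101, and 110 TPM. None of these 4 moved by 1.5-fold with either agent. The related *Gabarapl1*, also an autophagy protein, had 128, 87.5, 89.7, and 159 TPM, and was thus lower than its control with sevoflurane and higher with desflurane, in both cases by less than 2-fold. For chloride, the potassium-chloride exporter *Slc12a7* had 15.7, 18.0, 17.4, and 16.8 TPM and the chloride-proton exchanger *Clcn3* had 14.5, 17.4, 15.3, and 14.1 TPM. The glycine-conjugating *Glyat* had 405, 267, 274, and 474 TPM, and the glycine methyltransferase *Gnmt* had 240, 204, 177, and 194 TPM. In the acetylcholine list, *Ly6e* had 66.4, 40.2, 48.0, and 48.7 TPM, and the plasma cholinesterase *Bche* had 6.90, 7.15, 11.2, and 11.6 TPM, which separated the agents and not the 6 hour livers from their controls. In the NMDA list, *Grina* had 162, 172, 142, and 164 TPM, and the serine racemase *Srr* had 56.8, 62.2, 54.1, and 63.4 TPM. None of the 10 genes of GABA supply and clearance, the 13 of GABA-B receptor and GABA-A receptor trafficking, the 7 of chloride transport, the 10 of glycine transport and cleavage, and the 10 of acetylcholine handling passed the limits of the study with either agent against its own control. The 7 genes of NMDA receptor co-agonists and scaffolds did not pass either, although *Dao*, which breaks down D-serine, had 55.8, 53, 28, and 56 TPM and was just short of 2-fold with desflurane.

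In the 2 lists of other channels, abundant genes were *Trpm7* and *Itpr2* with between 22.1 and 33.2 TPM, and *Atp1b1*, a beta subunit of the sodium pump, with 20.7, 31.5, 20.2, and 24.9 TPM. Of these lists, 3 genes changed with desflurane and 2 with sevoflurane under the rule of the study. *Scnn1a*, the alpha subunit of the epithelial sodium channel, had 3.25, 11.3, 1.57, and 12.8 TPM. Both 6 hour livers were above both controls, with an increase of 3.48-fold with sevoflurane and 8.13-fold with desflurane against the respective controls. The 6 hour livers were close to each other at 11.3 and 12.8 TPM, whereas the controls had 3.25 and 1.57 TPM. The larger fold with desflurane thus came with the lower control. *Itpr1*, a calcium release channel of the endoplasmic reticulum, had 8.73, 17.0, 7.13, and 17.5 TPM, and it was 2.45-fold higher with desflurane and 1.95-fold higher with sevoflurane. *Kcnj8*, a pore subunit of ATP-sensitive potassium channels, decreased 2.14-fold with desflurane, with 5.77, 4.54, 6.78, and 3.16 TPM. *Kcnj15*, an inward rectifier, decreased 4.71-fold with sevoflurane, with 2.98, 0.632, 1.74, and 2.0 TPM. Over all 103 list genes, 1 was upregulated and 1 downregulated by sevoflurane, and 2 were upregulated and 1 downregulated by desflurane, beside the shares of all genes given above. The irritant receptor *Trpa1* did not exceed 0.0637 TPM, and *Trpv1* had 0.324, 0.585, 0.666, and 0.280 TPM.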

How the data were processed

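Livers of 4 rats were sequenced, 1 library per condition, and groups were taken from the labels. For trimming, mapping to rn6, sorting, and quantification of refGene genes, the authors used sickle 1.33, HISAT2 2.1.0, SAMtools 1.10, and StringTie 2.1.2. The deposited TPM values are a signal on a scale that StringTie set over its assembled rows and applied to annotated rows too. The deposited coverage is a signal that does not correct for depth, and the deposited FPKM values correct for depth and length.

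Annotated rows longer than 200 bp were kept, and TPM was added up over rows sharing a symbol. Values at or below 1e-05 TPM were read as 0. The calling rule was that of the paper, applied without a pseudocount to all 16992 genes. With 1 library per condition, single pairs of conditions were not tested. Both 6 hour livers were tested against both controls with limma 3.58.1 in R 4.3.3, on log2 values with 0.5 added to TPM, over the 11196 genes with a mean above 0.5 TPM, with Benjamini-Hochberg adjustment. This fit takes livers given different agents as replicates. Depth came from coverage relative to FPKM. Assembled rows were used only for overlap with members. Other settings concerned limits on TPM and fold, 0.5 TPM added to values, median-of-ratios scaling, FPKM, the length filter, summing of rows, coverage, and the control. The members and lists were chosen with earlier results of these data known. Of the members, all with a mean above 0.5 TPM and all past the limits were named; of the lists, the most abundant and those past the limits. *Gabrr1*, *Gabrr3*, *Dao*, *Kcnk1*, *Kcnk2*, *Chrna2*, *Chrna5*, *Trpa1*, and *Trpv1*, among others, and the 2 printed start regions were chosen after their values were seen. A few genes that the naming rule covers are not reported here. Start regions are from RefSeq (GRCr8), and coordinates of genes are those of the files (rn6). Python 3.11.15, numpy 2.4.6, pandas 2.3.3, and matplotlib 3.10.9 were used.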

Additional observations from a re-analysis of the deposited data

Results flagged for a closer look

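Ratios to the own control lay on different sides of 1 for 3 members. *Hcn3* was at 2.18-fold with sevoflurane and at 0.964-fold with desflurane, where the latter is close to its control and turned higher with the mean of the 2 controls. *Kcnk6* was at 1.0-fold and 0.871-fold, and the first of these is no movement, since its sign changed with the scaling. *Kcnk1*, at low levels, was 0.187-fold with sevoflurane and 2.62-fold with desflurane. With 1 library per condition, these differences between the agents were not tested. Transcripts assembled inside *Hcn3* on the opposite strand, which none of the comparisons uses, had a summed TPM of 4.51, 9.84, 5.29, and 7.10. In this order of libraries, which is the one used above, both 6 hour libraries were above both controls. Their coverage was only 1.63, 2.55, 0.694, and 1.94. The TPM of these transcripts was not in proportion to their coverage, and it cannot be set beside the TPM of annotated genes.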

How the results depend on the processing

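With a mean above 0.2 TPM, 15 members counted as expressed instead of 8. With the 2-fold limit and a TPM limit of 0.5, the number of members past the limits was 3 with sevoflurane and 2 with desflurane against the respective controls, 2 for desflurane against the sevoflurane control, 3 between the controls, and 2 between the 6 hour livers. With a limit of 1 TPM, it was 2 with sevoflurane and 1 between the controls. With a 1.5-fold limit, it was 2 with each agent, 4 for desflurane against the sevoflurane control, 2 between the controls, and 2 between the 6 hour livers. With the mean of the 2 controls, it was 0 with sevoflurane and 2 with desflurane. With FPKM in place of TPM, whose values are lower, it was 0 for desflurane against either control and 0 between the 6 hour livers. With 0.5 TPM added, the last count was also 0. In the test of both 6 hour livers against both controls, 3 of all genes passed, compared with 1 with the agent as a replicate block. Without 1 of the 4 libraries in turn, between 8 and 20 genes passed, the most without the sevoflurane control, and 0 members passed in each of these fits. These fits were added after the data were seen. The other 50 counts stayed within 1.5 times. Of 256 recalculated log2 changes of the expressed members, 12 changed sign, all of them less than 2-fold before and after, and 0 of the called ones were reversed. Within single conditions, no replicate could be left out. Coverage was below 3 in all libraries for *Chrnb1* and *Kcnk13*, which limits what small differences can show.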

Other observations

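Between 24 and 29 of the 64 members had a TPM value above 0 in a given library, the highest number being that of the desflurane 6 hour liver. Of the members below a mean of 0.5 TPM, 11 were listed above 0 in 1 library. Among them were *Gabrb2*, *Gabrd*, and *Chrna4* in the sevoflurane control, *Chrnb3* after sevoflurane, *Grin2b* and *Grin3a* in the desflurane control, and *Kcnk12*, *Chrnb4*, *Chrna7*, and *Glra1* after desflurane. Their values lay between 0.0168 and 0.134 TPM, and *Chrna7*, the nicotinic subunit known from macrophages, had 0.0767 TPM. *Chrna5*, with 0.422, 0.120, 0.0879, and 0.242 TPM in the order used above, was 3.51-fold lower with sevoflurane and 2.76-fold higher with desflurane against the respective controls, and the controls differed 4.80-fold. The summed TPM of the 16 nicotinic subunits was 2.12, 3.15, 2.76, and 5.32, and that of the 13 K2P channels was 11.4, 10.5, 11.6, and 12.2.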
